A study of Mus musculus with 2 samples.

Results

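The SUMO pathway and PML body genes described here are 32 mouse genes, taken by symbol from a fixed list, and each matched 1 gene model in both deposited libraries out of 34745 models in all. They cover 2 SUMO proteins, both subunits of the activating enzyme, 8 SUMO ligases, 7 proteases that remove SUMO, 2 ubiquitin ligases that read SUMO chains, 7 proteins of PML nuclear bodies and 4 TRIM proteins. No expression value was used to choose them, but earlier results of these data were known when the list was made.

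SUMO proteins are small modifiers that are joined to lysines of nuclear proteins by an activating enzyme (E1), a conjugating enzyme (E2) and ligases (E3), and are removed by SENP proteases. PML, the scaffold of the nuclear bodies that bear its name, is itself modified by SUMO on lysines, and partner proteins such as SP100 and DAXX gather there through SUMO. In acute promyelocytic leukaemia PML is fused to the retinoic acid receptor alpha as PML/RARA, the bodies are dispersed into fine speckles, and arsenic restores them and drives SUMO modification of the fusion, which the ubiquitin ligase RNF4 then marks for degradation.

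RNA-seq was done on haematopoietic stem and progenitor cells from the bone marrow of C57BL/6 mice given 5-fluorouracil, enriched with a progenitor isolation kit, infected with lentivirus and sorted for transduced cells. The groups are the form of PML/RARa labelled 2KR (1 library, 20462011 counts) and the wild-type form labelled WT (1 library, 17606168 counts). The series title names 2 lysines of the fusion, but the sources used here do not say which residues were changed, from which species the fusion's coding sequence came, how old the mice were or whether marrow was pooled. Both libraries carry PML/RARa, so the values compare the 2KR form with the wild-type form and not with cells lacking the fusion. An empty-vector arm, given in the protocol, was not analysed here. Both groups were infected with 6 µg/ml polybrene in a spin of 40 min, cultured for 24 h before the medium was changed, and grown with 20% serum, hydrocortisone, SCF at 50 ng/ml and both IL-3 and IL-6 at 10 ng/ml.

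Because each form had 1 library, no difference has a replicate check and no p-value can be given. Each ratio is 2KR over WT, from counts scaled to library size (CPM), with an exact 95% interval that covers counting error only. All 10 of 10 progenitor markers, Kit, Cd34 and Gata2 among them, were at 1 CPM or more in both libraries. They summed to 4378 CPM in 2KR and 4235 CPM in WT, but 5 were higher and 5 lower in 2KR. Cd34 was at 723.4 CPM in 2KR and 387.9 CPM in WT. Gata2 was at 447.4 CPM in 2KR and 682.6 CPM in WT, and Kit at 1158.5 CPM in 2KR and 1358.6 CPM in WT. Mast cell and basophil markers summed to 3347 CPM in 2KR and 6419 CPM in WT over 8 genes. Of these 8, 6 were lower in 2KR and 1, Mcpt8, was higher, at 449.8 CPM in 2KR and 190.1 CPM in WT. Cpa3 made up most of both sums, at 2525 CPM in 2KR and 5468 CPM in WT. Fcer1a was at 0 in both libraries, and Tpsb2 and Prss34 were at 0 in 2KR. Monocyte and macrophage markers summed to 121.3 CPM in 2KR and 259.8 CPM in WT over 7 genes, none at 0, with 4 higher and 3 lower in 2KR. Neutrophil markers summed to 2.33 CPM in 2KR and 2.29 CPM in WT over 6 genes, with Camp at 0 in both and Retnlg at 0 in WT. Megakaryocyte markers summed to 1335 CPM in 2KR and 1031 CPM in WT, erythroid markers to 25.9 CPM in 2KR and 15.6 CPM in WT, and lymphoid markers, nearly all from Nkg7, to 247.4 CPM in 2KR and 190.7 CPM in WT. Stromal and endothelial markers summed to 1130 CPM in 2KR and 1099 CPM in WT. Mitochondrial genes took 6.22% of counts in 2KR and 7.45% in WT. The part of these other cell types in the values below was not tested. In bulk RNA, fewer cells of a type and less RNA per cell cannot be told apart.

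The 32 genes lay close together between the libraries, with ratios from 0.837 for Pias3 to 1.39 for Trim27. No member differed 2-fold, against 7.22% of the 12466 tested models, those that averaged 1 CPM or more over both libraries. No member was 1.5-fold higher or lower either, against 6.92% of models 1.5-fold higher and 9.67% of models 1.5-fold lower. These background shares were not matched for depth, and the median member had more counts than the median tested model. Fold rules are applied to the log2 ratio of CPM + 1. At the smaller size of 1.2-fold, 6 members (18.8%) were higher in 2KR, against 21.5% of all tested models, and 0 were lower, against 21.1%. Pias3 passed that size, as 1 member lower, when ratios were centred on the median of all tested models. The share higher was therefore near the background. Sumo2 is 1 of the 6 members higher, although its counting interval of 0.922 to 1.73 holds 1. The median log2 ratio of the members was 0.08, beside 0.02 over all tested models. Of the members, 21 had ratios above 1 and 11 below, against 6515 above and 5951 below over all 12466 tested models.

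Small ratios could still be resolved from counting error, because most members were well covered. The median member had 1793 counts in 2KR and 1489 counts in WT, beside 681.5 and 573 over all tested models. For 15 members (46.9%) the counting interval lay wholly above 1, against 31.6% of tested models, and for 7 (21.9%) it lay wholly below 1, against 28.5%. For the other 10 it held 1. Deeper coverage narrows the interval, so these shares depend on the counts as well as on the ratios.

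**Figure D1:**
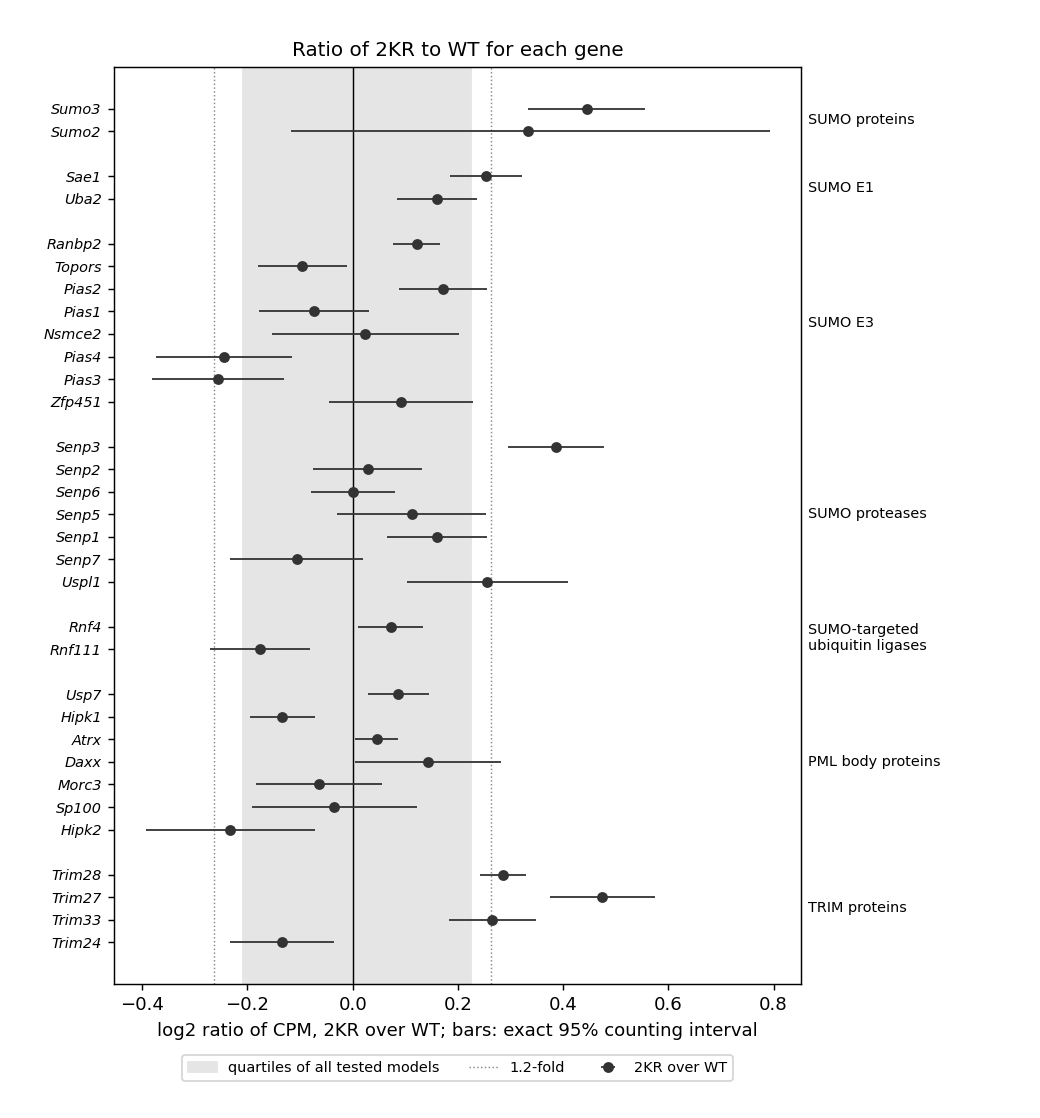
Log2 ratio of CPM, 2KR over WT (horizontal axis), for the 32 genes ordered by role (vertical axis). Points are the ratio of 1 library to 1 library, bars the exact 95% counting interval, dotted lines 1.2-fold, and the grey band the quartiles of all 12466 tested models; the points of Trim27, Sumo3 and Senp3 lie farthest to the right and those of Pias3, Pias4 and Hipk2 farthest to the left.

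Among the modifiers, Sumo3 differed most. Sumo3 (ENSMUSG00000020265, GRCm38 chr10:77606097-77641543), one of the closely related pair that forms SUMO chains, had 1726 counts in 2KR and 1076 counts in WT. That is 83.8 CPM in 2KR and 61.5 CPM in WT, a ratio of 1.36 (1.26 to 1.47). The model of Sumo3 overlaps that of Ube2g2, a ubiquitin-conjugating enzyme on the same strand, by 19269 bases. Ube2g2 had 795 counts in 2KR and 735 counts in WT, a ratio of 0.918 with an interval of 0.829 to 1.02 that holds 1. How reads from the shared stretch were divided between the 2 models was not tested, so the ratio of Sumo3 is uncertain.

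Sumo2 (ENSMUSG00000020738, GRCm38 chr11:115523102-115536276), the other chain-forming modifier, had the lowest count of all members, 104 in 2KR and 70 in WT. Its ratio was 1.26, with an interval of 0.922 to 1.73 that holds 1. This count is uncertain, because the annotation holds near-identical copies of its coding sequence. A search of the GENCODE M21 transcripts with those of Sumo2 found 12 other genes that align over at least 200 bases at 95% identity or more, and 11 of them are annotated as pseudogenes. A read from such a stretch can match several places, and the sources used here do not say how the authors' counting treated it. The first 90 bases of the Sumo2 coding sequence are shown with 3 of these copies and with the first 87 bases of Sumo3, to show how little separates the copies and how much separates the paralog. Capitals mark bases that differ from Sumo2.
Sumo2: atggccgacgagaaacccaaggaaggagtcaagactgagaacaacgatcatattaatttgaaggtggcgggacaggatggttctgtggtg
Gm10241: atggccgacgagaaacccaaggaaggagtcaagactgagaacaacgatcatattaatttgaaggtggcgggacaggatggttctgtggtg
Smt3h2-ps4: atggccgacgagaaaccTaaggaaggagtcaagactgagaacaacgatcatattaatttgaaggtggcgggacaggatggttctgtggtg
Samd8: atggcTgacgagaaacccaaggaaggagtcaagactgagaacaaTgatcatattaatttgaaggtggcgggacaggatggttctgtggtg
Sumo3: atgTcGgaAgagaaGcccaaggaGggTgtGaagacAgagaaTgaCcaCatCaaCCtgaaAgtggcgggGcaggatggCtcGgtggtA

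The processed pseudogene Gm10241 (GRCm38 chr16:20176727-20177012) has no difference from Sumo2 over the 286 bases that align. Smt3h2-ps4 (chr1:14839869-14840156) has 1 mismatch over the whole coding length. The protein-coding gene Samd8 (chr14:21750531-21798726) holds a stretch of 222 bases at 95.5% identity to a Sumo2 transcript, and 202 of its bases align to the Sumo2 coding sequence alone, at 96.5% identity. Sumo3, by contrast, is 82.8% identical to Sumo2 over 285 aligned coding bases and lacks 3 bases of Sumo2 within the window. Rows were matched for 5 of the 12 copies. Samd8 had 340 counts in 2KR and 506 counts in WT, and the other 4 had 0 to 2 counts in each library.

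Both subunits of the activating enzyme were slightly higher in 2KR. Sae1 had 4172 counts in 2KR and 2969 counts in WT, or 202.5 CPM in 2KR and 169.8 CPM in WT, a ratio of 1.19 (1.14 to 1.25). Uba2, the catalytic subunit that pairs with it, had 3244 counts in 2KR and 2463 counts in WT, or 157.4 CPM in 2KR and 140.9 CPM in WT, a ratio of 1.12 (1.06 to 1.18). The balance of the subunits was close in both libraries, since Sae1 took 56.3% of their joint counts in 2KR (Wilson 95% interval 55.1 to 57.4) and 54.7% in WT (53.3 to 55.98).

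The ligases split in direction. Of 8, 4 had a ratio above 1 and 4 below, and none reached 1.2-fold. Within the PIAS family, whose members carry an SP-RING domain, Pias2 (GRCm38 chr18:77065208-77155708) had 2717 counts in 2KR and 2047 counts in WT, a ratio of 1.13 (1.06 to 1.19). Its relatives lay on the other side of 1. Pias3 (chr3:96696384-96706070), known as an inhibitor of STAT3, had 1039 counts in 2KR and 1053 counts in WT, a ratio of 0.837 (0.768 to 0.913). Pias4 (chr10:81153266-81167923) had 983 counts in 2KR and 988 counts in WT, a ratio of 0.844 (0.772 to 0.923). Pias1, an inhibitor of cytokine signalling, had 1563 counts in 2KR and 1396 counts in WT, a ratio of 0.95 with an interval of 0.883 to 1.02. The ratio of Pias2 to Pias3 counts was thus 2.62 in 2KR and 1.94 in WT, a difference of 1.35-fold (1.21 to 1.49) that does not depend on how the libraries are scaled. This pair, like the other pairs and families below, was picked after the values were seen.

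The other 4 ligases differed by at most 1.09-fold in either direction. Ranbp2, a nucleoporin of the cytoplasmic filaments of the nuclear pore, had 9230 counts in 2KR and 7198 counts in WT, a ratio of 1.09 (1.05 to 1.12). Its partner Rangap1, from the list of related genes, had 3998 counts in 2KR and 2796 counts in WT, a ratio of 1.21 (1.16 to 1.27). Zfp451, whose human counterpart builds SUMO chains, had 992 counts in 2KR and 790 counts in WT, a ratio of 1.07 (0.969 to 1.17). Nsmce2, the ligase of the SMC5/6 complex of DNA repair, had 575 counts in 2KR and 480 counts in WT, a ratio of 1.02 (0.899 to 1.15). Neither differed beyond counting error. Topors, which can attach both ubiquitin and SUMO, had 2384 counts in 2KR and 2162 counts in WT, a ratio of 0.936 (0.882 to 0.992), and its interval held 1 when libraries were scaled by total counts only (0.895 to 1.006).

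Of the 7 proteases, 6 had a ratio above 1, against 6515 of the 12466 tested models. However, 1 of these 6, Senp6, was level between the libraries and fell below 1 with DESeq2 size factors and on centring. In 3 (42.9%) the counting interval lay above 1, against 31.6% of all tested models. Senp3 (ENSMUSG00000005204, GRCm38 chr11:69673115-69682084), a nucleolar protease that removes the chain-forming SUMOs and takes part in ribosome maturation, had 2437 counts in 2KR and 1582 counts in WT. Scaled, that is 118.3 CPM in 2KR and 90.5 CPM in WT, a ratio of 1.31 (1.23 to 1.39). Senp5, the relative that is also nucleolar, had 930 counts in 2KR and 730 counts in WT, a ratio of 1.08 (0.980 to 1.19). Senp3 has 2 processed pseudogenes at about 96% identity, the longer alignment over 1355 bases, so part of its reads could be placed elsewhere.

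Senp1 and Senp2 mature SUMO precursors and also remove conjugated SUMO. Senp1 had 2119 counts in 2KR and 1609 counts in WT, a ratio of 1.12 (1.05 to 1.19), and its interval lay above 1. Senp2 had 1667 counts in 2KR and 1387 counts in WT, a ratio of 1.02 (0.949 to 1.10) that lay within counting error. The Senp1 model overlaps Pfkm, a muscle-type phosphofructokinase gene on the opposite strand, by 1156 bases, and Pfkm had a ratio of 1.27 (1.18 to 1.36). Senp6 and Senp7 trim SUMO chains. Senp6 had 2765 counts in 2KR and 2346 counts in WT, or 134.2 CPM in both, with an interval of 0.946 to 1.06, and it shares a stretch of 245 bases at 96.7% identity with a transcript of Atp5l. Senp7 had 1075 counts in 2KR and 982 counts in WT, a ratio of 0.929 (0.851 to 1.014). Neither interval excluded 1. Uspl1, a SUMO protease of Cajal bodies that is unrelated in sequence to the SENPs, had 844 counts in 2KR and 600 counts in WT, a ratio of 1.19 (1.07 to 1.33). It overlaps the abundant gene Hmgb1 by 140 bases on the opposite strand, and Hmgb1 had a ratio of 1.21 (1.14 to 1.27). Where counting ignores strand, reads in such overlaps cannot be told apart.

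The ubiquitin ligases that recognise SUMO chains lay on either side of 1. Rnf4, which acts on PML after arsenic treatment, had 4757 counts in 2KR and 3838 counts in WT, a ratio of 1.05 (1.008 to 1.10), and its interval held 1 after centring (0.9955 to 1.084). Rnf111, also called Arkadia and known from TGF-beta signalling, had 1844 counts in 2KR and 1768 counts in WT, a ratio of 0.885 (0.829 to 0.945). Counts of Rnf4 per count of Rnf111 were 2.58 in 2KR and 2.17 in WT, which differ by 1.19-fold (1.10 to 1.29).

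The 7 PML body proteins had a median log2 ratio of -0.03, 3 ratios above 1 and 4 below. Sp100, a body component induced by interferon, had 711 counts in 2KR and 618 counts in WT, a ratio of 0.976 (0.875 to 1.09). The 3 related pseudogene models near it on chromosome 1 align to it at 98% identity or more, and they had at most 1 count. Daxx, the histone H3.3 chaperone, had 985 counts in 2KR and 757 counts in WT, a ratio of 1.10 (1.003 to 1.22). Its remodelling partner Atrx had 10908 counts in 2KR and 8967 counts in WT, the most of any member, and a ratio of 1.03 (1.004 to 1.06). The counting intervals of both lay just above 1, and both held 1 with DESeq2 size factors, at 0.9986 to 1.21 for Daxx and 0.999 to 1.057 for Atrx, and when ratios were centred on the median of all tested models.

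The homeodomain-interacting kinases of the set, Hipk1 and Hipk2, were on the lower side. Their relative Hipk3, from the list of related genes, had 2518 counts in 2KR and 2298 counts in WT, a ratio of 0.930 (0.878 to 0.984). Hipk1 had 4437 counts in 2KR and 4131 counts in WT, a ratio of 0.911 (0.873 to 0.951). Hipk2 (GRCm38 chr6:38694390-38876165), which phosphorylates p53, had 634 counts in 2KR and 632 counts in WT, a ratio of 0.851 (0.761 to 0.952). Hipk2 shares 472 identical bases with a transcript of Ubn2, which had 3240 counts in 2KR and 2632 counts in WT. Usp7, the deubiquitinase of MDM2 and p53, had 5470 counts in 2KR and 4370 counts in WT, a ratio of 1.06 (1.02 to 1.11). Its 1 near-identical copy is a processed pseudogene on chromosome 18. Morc3, an ATPase that brings p53 to the bodies, had 1209 counts in 2KR and 1073 counts in WT, a ratio of 0.956 (0.880 to 1.04) that lay within counting error.

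Of the 4 TRIM proteins, relatives of PML in domain structure, 3 (75%) were at least 1.2-fold higher, against 21.5% of all tested models. Trim33 was only just past that size, and Trim24 was lower in 2KR. These 3 are among the 6 members at least 1.2-fold higher. Trim27 (ENSMUSG00000021326, GRCm38 chr13:21179445-21194724), a ubiquitin ligase also known as RFP that can associate with PML bodies, had 2186 counts in 2KR and 1335 counts in WT. That is 106.1 CPM in 2KR and 76.4 CPM in WT, a ratio of 1.39 (1.30 to 1.49), the highest of the 32. By log2 ratio it lay above 89.997% of all tested models.

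The other 3 TRIM proteins form the TIF1 family of chromatin regulators. Trim28 (chr7:13024152-13031035), the corepressor KAP1 of KRAB zinc finger proteins, had 10341 counts in 2KR and 7199 counts in WT, a ratio of 1.22 (1.18 to 1.26). Trim33 (chr3:103279293-103358775), TIF1 gamma, which acts with SMAD proteins in blood formation, had 2859 counts in 2KR and 2018 counts in WT, a ratio of 1.202 (1.14 to 1.27), which was under 1.2-fold with DESeq2 size factors and after centring. Trim24, TIF1 alpha, a cofactor of retinoic acid receptors, was on the other side with 1742 counts in 2KR and 1623 counts in WT, a ratio of 0.911 (0.851 to 0.975). The counts of Trim28 and Trim33 kept their proportion, at 3.62 in 2KR and 3.57 in WT, a difference of 1.014-fold (0.95 to 1.08). Trim28 per count of Trim24 was 5.94 in 2KR and 4.44 in WT, a difference of 1.34-fold (1.24 to 1.44).

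The makeup of each family is free of the scaling between libraries, since all its genes were counted in the same library. Pias2 supplied 43.1% of PIAS counts in 2KR (Wilson 95% interval 41.9 to 44.3) and 37.3% in WT (36.1 to 38.6). Senp3 supplied 22.2% of SENP counts in 2KR (21.4 to 22.95) and 18.3% in WT (17.5 to 19.15). In the TIF1 family, Trim24 supplied 11.7% in 2KR (11.2 to 12.2) and 14.97% in WT (14.3 to 15.7). These 3 pairs of intervals did not overlap. The shares of Senp5 (8.46% in 2KR and 8.45% in WT) lay within counting error. So did the share of Hipk1 in the joint counts of Hipk1 and Hipk2 (87.5% in 2KR and 86.7% in WT). Hipk3, also a HIPK gene, was left out of those joint counts, so they do not give the makeup of the whole HIPK family.

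**Figure D2:**
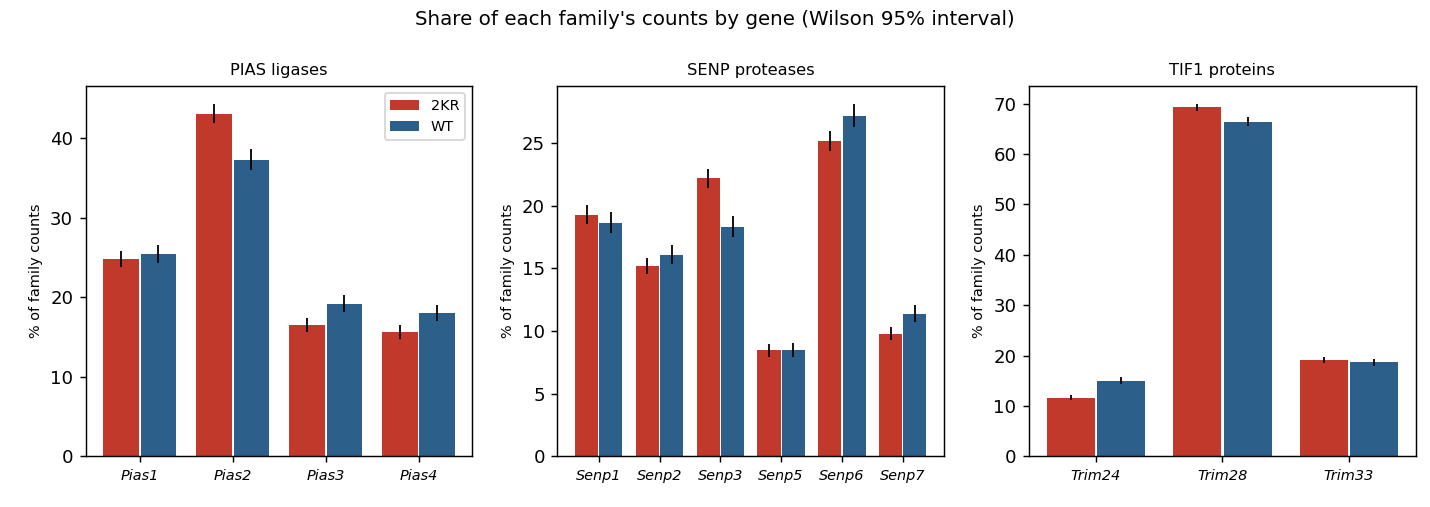
Share of each family's counts (vertical axis, percent) by gene (horizontal axis) for PIAS ligases, SENP proteases and TIF1 proteins, in the 2KR library (left bar) and the WT library (right bar) with Wilson 95% intervals. The bars of Pias2 and Senp3 are taller in 2KR and those of Trim24 are shorter. Among the SENPs, Senp3 stands above Senp1 in 2KR, while in WT Senp1 stands above Senp3 with overlapping intervals.

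Levels between genes can be compared only per length, for which the deposited FPKM was used. Sae1 was the highest in both libraries, at 108.2 FPKM in 2KR and 89.5 FPKM in WT. Trim28 followed with 67.6 FPKM in 2KR and 54.7 FPKM in WT, then Ranbp2 with 47.6 and 43.1 FPKM in 2KR and WT. At the low end stood Uspl1 with 1.87 FPKM in 2KR and 1.54 FPKM in WT, next to Sumo2 with 2.07 and 1.62 FPKM. The level of Sumo2 is as uncertain as its count, because of its near-identical copies. The median member was at 10.3 FPKM in 2KR and 9.60 FPKM in WT, beside 6.17 and 6.11 FPKM over all tested models, and 24 members in 2KR and 25 in WT were above that level. Of the 31 neighbouring pairs in the order of FPKM, 17 in 2KR and 20 in WT had overlapping counting intervals, so much of the order is not resolved.

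The order also rests on the gene length behind the deposited FPKM. The length implied by count and FPKM was longer than the merged exons of GENCODE M21 for 23 of 32 members, shorter for 6 and within 1% for 3, and it ranged from 0.564 to 2.40 times the merged length. Counts per kilobase of merged exon put Trim28 first in both libraries, at 120.7 CPM per kilobase in 2KR and 99.03 in WT. Sae1 was then second, at 78.0 CPM per kilobase in 2KR and 65.4 in WT. Ratios between libraries are not touched by this choice, because the same length was used in both.

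**Figure D3:**
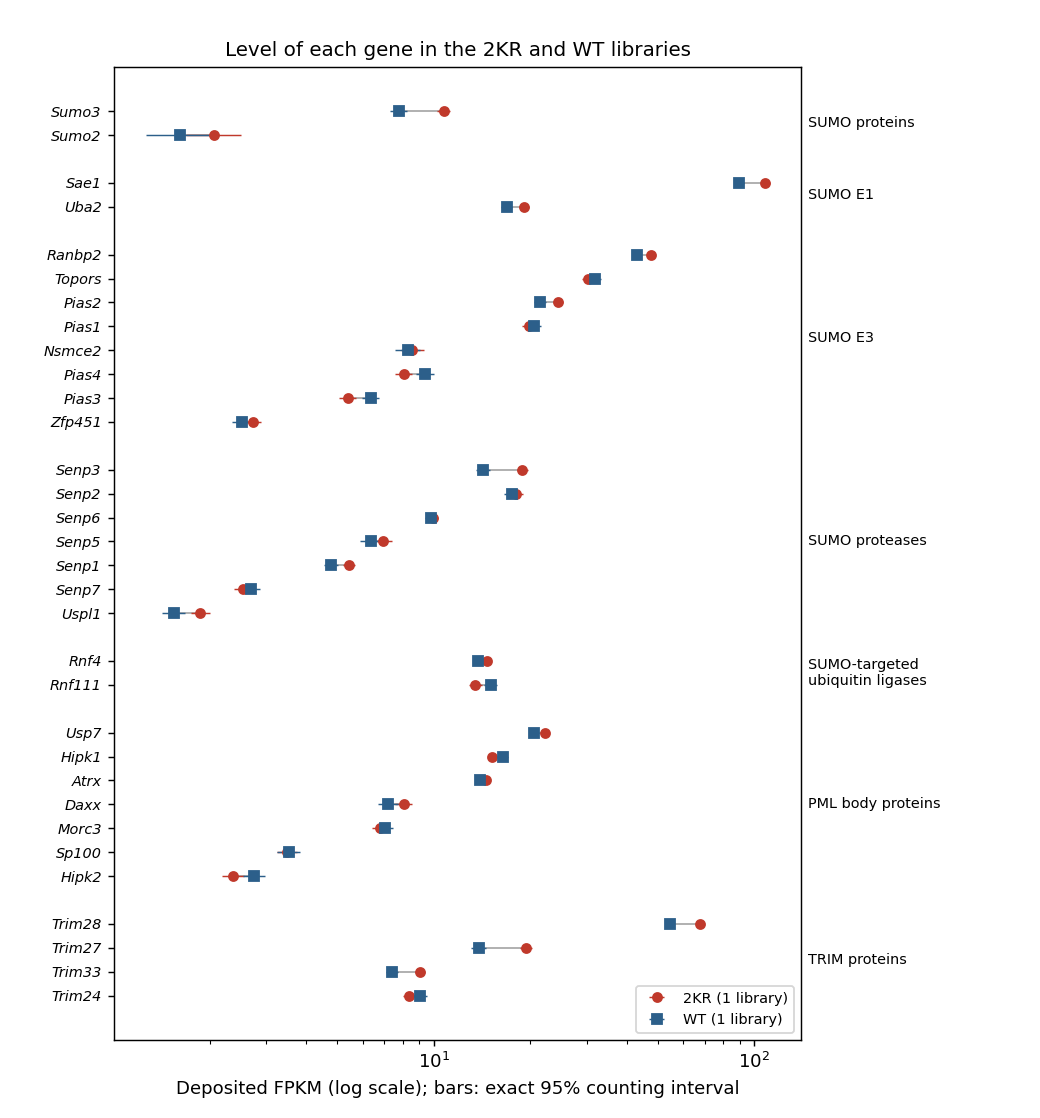
Deposited FPKM (horizontal axis, log scale) of the 32 genes ordered by role (vertical axis), in the 2KR library (circles) and the WT library (squares), with exact 95% counting intervals. Levels run from 1.54 to 108.2 FPKM, a far wider span than any distance between the libraries for 1 gene.

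Genes that work beside the members were read from 5 lists. Their counts of ratios above and below 1 stand beside 6515 above and 5951 below over all tested models. Of 14 other SUMO pathway genes 13 were tested and 1, Slf2, was not analysed here; their median log2 ratio was 0.15, 9 ratios above 1 and 4 below, 3 at least 1.2-fold higher (23.1%, against 21.5% of all tested models) and 0 lower (against 21.1%). The share higher was near the background. Simc1, which carries SUMO-interacting motifs, had 1032 counts in 2KR and 621 counts in WT, a ratio of 1.41 (1.28 to 1.56), and overlaps 4833439L19Rik by 73 bases. Desi1, a SUMO protease outside the SENP family, had 1052 counts in 2KR and 712 counts in WT, a ratio of 1.25 (1.14 to 1.38), and overlaps Xrcc6 by 41340 bases. Zmiz1, a PIAS-like cofactor, had 4938 counts in 2KR and 4995 counts in WT, a ratio of 0.839 (0.806 to 0.873).

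The 16 other PML body genes had a median log2 ratio of 0.01, with 8 ratios above 1 and 8 below. Of these, 3 (18.8%) were at least 1.2-fold higher, against 21.5% of all tested models, and 1 (6.25%) was lower, against 21.1%. Pml had 1487 counts in 2KR and 931 counts in WT, or 72.2 CPM in 2KR and 53.2 CPM in WT, a ratio of 1.36 (1.25 to 1.47). The Pml model may hold reads of the introduced fusion, so this value neither measures the mouse gene alone nor checks the labels. Topbp1, a checkpoint protein of DNA replication, had 7370 counts in 2KR and 4356 counts in WT, a ratio of 1.44 (1.38 to 1.49). Crebbp, the acetyltransferase CBP found in PML bodies, was the only gene of this list past 1.5-fold, with 1515 counts in 2KR and 2154 counts in WT, a ratio of 0.597 (0.558 to 0.638). H3f3b, a gene of the histone H3.3 that DAXX deposits, was the most abundant, at 555.4 CPM in 2KR and 584.5 CPM in WT.

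Among 9 partners of SUMO-targeted degradation, the median log2 ratio was 0.11 and 7 ratios were above 1. Vcp, the unfoldase p97 that extracts modified proteins, had a ratio of 1.17 (1.12 to 1.22), and the ubiquitin activating enzyme Uba1 one of 1.03 (0.995 to 1.06). Ube2v1, a partner of the ubiquitin conjugating enzyme Ube2n, had 110 counts in 2KR and 717 counts in WT, but it overlaps Gm20431 on the same strand by 24246 bases, which had 1394 counts in 2KR and 573 counts in WT. Its ratio of 0.130 (0.106 to 0.159) is therefore uncertain. The NEDD8 pathway, a parallel system with its own E1 and E2, held 9 genes, 8 of them with a ratio above 1, at a median log2 ratio of 0.13. The 2 that were at least 1.2-fold higher make 22.2% of the list, near the 21.5% of all tested models. In it the NEDD8 ligase gene Dcun1d1 had a ratio of 1.30 (1.19 to 1.43), the NEDD8 protease gene Senp8 one of 1.28 (1.10 to 1.49), and the E1 subunit gene Uba3 one of 1.05 (0.983 to 1.11).

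Interferon-stimulated genes, the class to which Pml and Sp100 belong, were mostly low. Of 15, 7 were tested, with a median log2 ratio of -0.08, 3 ratios above 1 and 4 below. Ifit3, Mx1 and Usp18 had 0 counts in both libraries. Stat2, a transcription factor of interferon signalling, had 1299 counts in 2KR and 1272 counts in WT, a ratio of 0.867 (0.801 to 0.937). By contrast, Bst2, which tethers virus particles, had 1526 counts in 2KR and 953 counts in WT, a ratio of 1.36 (1.25 to 1.47). The tested members of this list thus lay on both sides of 1, as did those of the PML body lists.

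**Figure D4:**
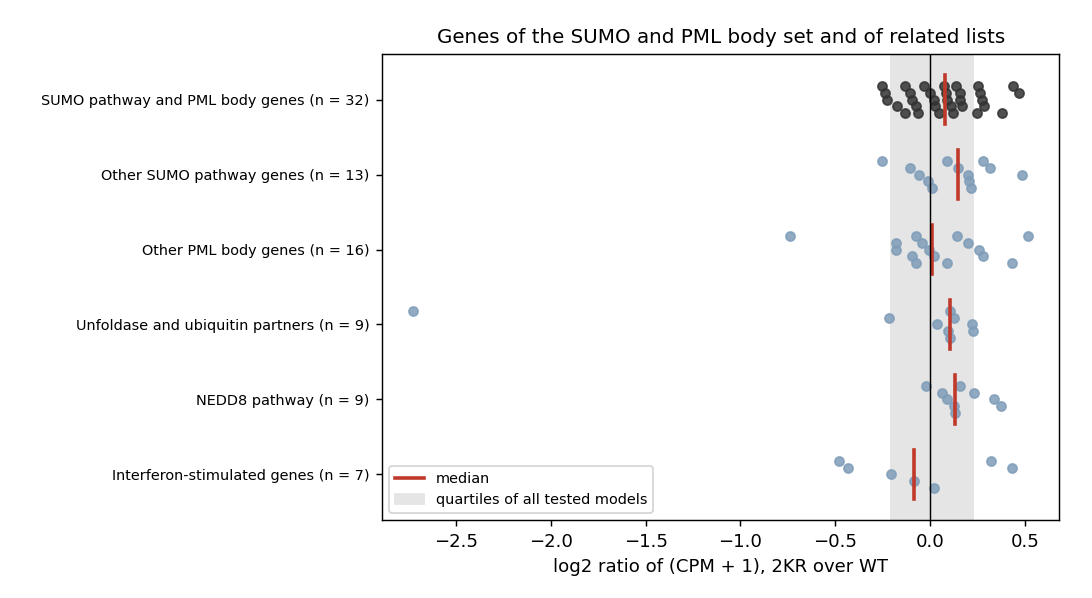
Log2 ratio of CPM + 1, 2KR over WT (horizontal axis), for each tested gene of the SUMO pathway and PML body set and of the 5 related lists (vertical axis). Each point is 1 gene, red bars are list medians and the grey band holds the quartiles of all 12466 tested models; the set of 32 spans -0.25 to 0.47, and the point far to the left is Ube2v1.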

How the data were processed

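RNA-seq gene tables of 1 library per form of PML/RARa were analysed. The submitters' processing notes name HISAT2 2.0.4 and GRCm38. Each deposited table holds, per the file headers, unnormalized read counts and FPKM values of 34745 gene models. Read counter, annotation release and strand setting: not given in the sources used here. The deposited FPKM equalled the count divided by library total and by a length that was the same in both files, within 0.1%, for 15403 of 15403 models compared.

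Counts were scaled with TMM factors of edgeR 4.0.16 (R 4.3.3) and expressed as CPM. Log2 ratios (2KR over WT) were taken after adding 1 to each CPM, so that differences of low genes are understated. Ratios in the text use CPM without the pseudocount, each with the 95% interval that exact Clopper-Pearson limits on the split of its counts give. Ratios of ratios between genes use exact conditional intervals, and shares Wilson intervals. PCR reads are not independent molecules, so all intervals cover counting error only. The 12466 models that averaged 1 CPM or more are called tested, and all 32 members passed. With 1 library per group no test was run. Overlaps came from the file coordinates, strand and merged exon lengths from GENCODE M21 on GRCm38, to which 34267 identifiers matched. Near-identical copies came from blastn 2.17.0 searches of its transcripts, at 95% identity or more over at least 200 bases outside the locus. Sequences are from the same GENCODE M21 transcripts, and paralogs were aligned with Biopython. Python 3.11.15, scipy 1.17.1 and matplotlib 3.10.9 did the rest, and the interval was tested on simulated counts.

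All members are named. Pml was also always named, and from each of 5 related lists the 2 tested genes with the largest log2 ratio in size and the most abundant one. Some genes that this rule picks are not reported here. Rangap1, named beside Ranbp2, the families and gene pairs set against each other, and genes named for an overlap, a copy or counts of 0 were chosen after their values were seen. The same holds for Hipk3, named beside Hipk1 and Hipk2, and for cell type markers given with their own values. Members and lists were chosen with earlier results of these data known. Alternatives were DESeq2 1.42.0 size factors, total counts, centring on the median of all tested models, pseudocounts of 0.1 and 5, the filter dropped or raised to 5 CPM, deposited FPKM, and leaving out overlapping members. Leaving out members with near-identical copies was added after the data were seen.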

Additional observations from a re-analysis of the deposited data

How the results depend on the processing

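The absence of any member past 1.5-fold held under all 10 alternatives. The 6 members at least 1.2-fold higher became 4 to 8, and the 15 with counting intervals above 1 became 11 to 15. Daxx and Atrx left the second count with DESeq2 size factors and after centring, and Rnf4 after centring. Centring the ratios on the median of all tested models put 1 member, Pias3, at least 1.2-fold lower, where the main count was 0. Leaving out the 11 members that overlap another model, which keeps 21, cut the members with intervals below 1 to 3 from 7, by construction, since fewer genes were counted. The members' median log2 ratio ranged from 0.06 to 0.10. The median of the other SUMO pathway genes was 0.20 at a pseudocount of 0.1 and 0.08 at 5, that of the other PML body genes -0.01 after centring, and that of the interferon-stimulated genes 0.00 with no filter and -0.14 with a minimum of 5 CPM. Of 482 values of single named genes under alternatives, 479 moved by no more than 0.5 of the width of the counting interval, and 0 of those past 1.2-fold changed sign. The other 3 were Ube2v1, with a log2 ratio of -2.15 at a pseudocount of 5 and -2.03 on FPKM, and Crebbp, at -0.61 on FPKM. Intervals could not be recomputed on FPKM. No paired analysis was possible because each group has 1 library, and leaving out a library was not possible either. Variation between cultures was not measured. Sumo2, at 104 counts in 2KR and 70 in WT, had the lowest count of the members. Because of its near-identical copies, low depth and reads placed elsewhere cannot be told apart for it.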
